A study of Homo sapiens with 2 samples.

Results

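The peaks of chromosome 1 were chosen by their chromosome name alone, which gave 8416 of the 66954 MYBL2 peaks in the deposited list. Chromosome 1 was singled out because its peaks outside promoters were the most closely spaced of any chromosome, so that rank is a description here and carries no test. MYBL2 was measured by chromatin immunoprecipitation and sequencing (ChIP-seq) in A673, an established Ewing sarcoma cell line that carries the EWSR1-FLI1 fusion, grown without any treatment named in the labels. The labels list 2 samples, 1 MYBL2 ChIP and 1 input (sheared chromatin with no antibody), each a single library, and the peak list belongs to the ChIP, with the input as its control. With 1 library per group there is no replicate error, so no p-value is given. Intervals of counts, shares and density ratios are exact 95% intervals that cover counting error only. They are too narrow wherever neighbouring peaks are not independent. Intervals of a ratio of gene shares or of median backgrounds divide opposite bounds, so they are wider than 95% intervals. A single line limits the model, and the antibody is labelled as anti-MYBL2, whereas the methods describe one against the phosphorylated, activated form.

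MYBL2, also called B-MYB, is a transcription factor of dividing cells. It recognises the MYB site and joins the MuvB complex, which reaches the promoters of mitotic genes through a sequence called the cell cycle genes homology region (CHR). Chromosome 1 is the largest human chromosome, with a gene-rich end on its short arm, the epidermal differentiation complex and many olfactory receptor genes on its long arm, and a large block of unassembled sequence beside the centromere.

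The strongest peaks of each arm and of the densest distal stretch are shown as 101-base windows centred on the summit (the highest point of a peak), because these are the places with the most signal over control. Bases are from GRCh37, plus strand, and capitals mark matches on either strand to the MYB site (AACNG), the CHR element (TTTGAA), the CCAAT box (CCAAT) or an ETS core (CCGGAAGT). The E2F site and GGAA repeats, also searched, had no match in these windows.
Strongest promoter peak, short arm, chr1:17231789-17231889: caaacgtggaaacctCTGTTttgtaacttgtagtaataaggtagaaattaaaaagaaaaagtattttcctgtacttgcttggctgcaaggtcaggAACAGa
Strongest distal peak, short arm, chr1:45187420-45187520: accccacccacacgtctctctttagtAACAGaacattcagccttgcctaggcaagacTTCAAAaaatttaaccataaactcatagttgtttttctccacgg
Strongest promoter peak, long arm, chr1:151138436-151138536: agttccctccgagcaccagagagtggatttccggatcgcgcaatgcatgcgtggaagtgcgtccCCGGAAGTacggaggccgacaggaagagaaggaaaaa
Strongest distal peak, long arm, chr1:210547439-210547539: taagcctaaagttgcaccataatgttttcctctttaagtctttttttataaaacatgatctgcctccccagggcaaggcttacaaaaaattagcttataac
Strongest distal peak of the densest distal bin, chr1:26827645-26827745: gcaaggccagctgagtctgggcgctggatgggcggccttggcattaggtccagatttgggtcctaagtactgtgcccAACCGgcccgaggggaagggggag
Strongest distal peak in HMCN1, the gene with the most distal peaks, chr1:185709520-185709620: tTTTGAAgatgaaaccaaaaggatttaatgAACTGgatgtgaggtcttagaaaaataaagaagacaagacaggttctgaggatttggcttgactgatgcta
Strongest distal peak in RERE, chr1:8468368-8468468: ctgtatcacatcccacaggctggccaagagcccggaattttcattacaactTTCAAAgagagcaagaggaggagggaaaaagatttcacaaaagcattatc

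Chromosome 1 held 12.6% of all peaks in 7.94% of the sequenced bases of the assembly, at 37.4 peaks per ungapped Mb (Mb of sequence outside assembly gaps). A promoter peak was one that overlapped by at least 1 base the 1000 bp either side of any start site of a protein-coding or lncRNA gene, and every other peak was called distal. There were 2493 promoter and 5923 distal peaks, so that 29.6% of the peaks (28.6 to 30.6) were at a promoter, below the 34.3% over all chromosomes. Promoter density was 11.1 per Mb, which ranked 5 among the 23 chromosomes. Distal density was 26.3 per Mb, ahead of 24.6 on chromosome 19, 23.1 on chromosome 16 and 21.8 on chromosome 22. Against all other chromosomes together, promoter peaks were 1.41 times as dense (1.35 to 1.47) and distal peaks 1.80 times (1.75 to 1.85).

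**Figure D1:**
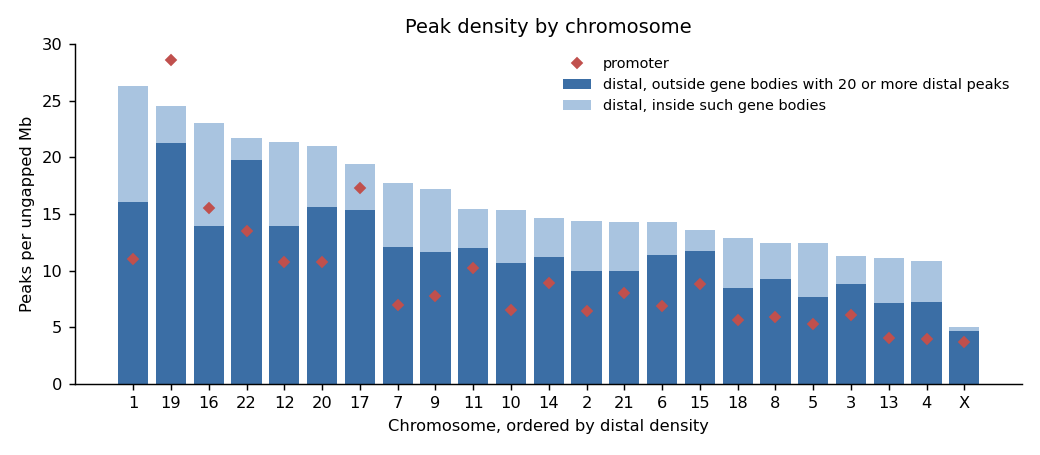
Peaks per ungapped Mb on each chromosome, with distal peaks as bars divided by whether they fell in a protein-coding gene body that held 20 or more of them, and promoter peaks as diamonds. The distal bar of chromosome 1 reaches 26.3 per Mb, of which 16.1 lay outside such gene bodies, below the 21.3 of chromosome 19 and the 19.7 of chromosome 22.

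The first rank did not hold under every definition. With only peaks of a fold enrichment of at least 5 (signal over local control), chromosome 1 fell to rank 5 with 2.46 distal peaks per Mb, against 4.01 on chromosome 19. With promoter windows of 500 bp either side it ranked 2, at 28.4 per Mb against 29.2 on chromosome 19. Among such strong peaks distal density was 1.37 times that of the other chromosomes (1.25 to 1.496). On chromosome 1, 1648 of the 8416 peaks (19.6%) had a fold enrichment of 5 or more, against 24% over all chromosomes, and the median fold enrichment of distal peaks was 3.41 on chromosome 1 and 3.58 elsewhere.

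The local background, the read pileup expected from the control at each peak, also differed between chromosomes. It was recovered from the deposited fold enrichment and −log10 p and is given in reads. Its median was 4.96 on chromosome 1 and 4.08 on the other chromosomes, and 4.62% of chromosome 1 peaks sat at the lowest value (3.45), against 22.5% elsewhere. Chromosome 18 had the highest median background (4.97), with a distal density of 12.9 per Mb that ranked 17. The part of the background in the density of chromosome 1 was not tested.

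The arms were divided at the longest unassembled stretch of chromosome 1 (chr1:121485435-142535434, 21.05 Mb), referred to as the centromere gap. The short arm had 120.5 ungapped Mb and the long arm 104.8. Peaks were denser on the short arm, which held 5074 peaks at 42.1 per Mb, while the long arm held 3342 at 31.9 per Mb. The ratio of long to short arm density was 0.757 (0.725 to 0.791). For promoter peaks the densities were 12.2 and 9.78 per Mb, a ratio of 0.803 (0.740 to 0.870), and for distal peaks 29.9 and 22.1 per Mb, a ratio of 0.739 (0.701 to 0.778). Where fold enrichment was 5 or more, the distal ratio was 0.879 (0.740 to 1.04), an interval that includes 1. Promoter peaks made up 28.9% of the short arm peaks (27.7 to 30.2) and 30.7% of the long arm peaks (29.1 to 32.3), whose intervals overlapped.

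Gene density did not follow the same order. The short arm had 16.0 genes per Mb (1928 genes) and the long arm 16.4 (1719 genes), counting protein-coding and lncRNA genes by their outermost start. A promoter peak was found at 49.5% of the short arm genes (47.2 to 51.7) and 41.4% of the long arm genes (39.1 to 43.8), beside 41.9% of genes over all chromosomes. Among protein-coding genes the shares were 64.0% (61.0 to 66.8) and 52.1% (48.9 to 55.2), so that the short arm stood above and the long arm below the 59.4% over all chromosomes. Among lncRNA genes they were 30.5% (27.4 to 33.8) and 26.7% (23.5 to 30.1), with overlapping intervals.

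Clustered gene families were unevenly divided between the arms. The long arm held 152 protein-coding genes of 7 such families, of which 7 had a promoter peak, and the short arm 42, of which 2 had one. Outside these families, a set put together after the arm values were seen, the shares were 66.3% on the short arm (63.4 to 69.2) and 60.6% on the long arm (57.2 to 63.9), and their intervals overlapped slightly. The set does not include the replication-dependent histone genes of the long arm, of which 7 of 14 had a promoter peak. Promoter peaks were few in the chosen families, so leaving them out raises the shares by construction, most on the arm with more such genes. The ratio of the long to the short arm share was 0.837 (0.755 to 0.927) over all genes, 0.814 (0.732 to 0.904) over protein-coding genes and 0.913 (0.827 to 1.01) over protein-coding genes outside the families.

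Median peak strength did not separate the arms, although the share of peaks with a fold enrichment of 5 or more differed slightly. It was 18.9% on the short arm (960 peaks) and 20.6% on the long arm (688), against 24% over all chromosomes. The median fold enrichment of distal peaks was 3.41 on both arms, with quartiles of 2.97 and 3.94 on the short arm and 2.96 and 4.05 on the long arm. The median fold enrichment of promoter peaks was 4.49 on both arms. The median background was 4.90 reads on the short arm and 5.05 on the long arm, a ratio of 1.03 (1.02 to 1.06). Distal summits lay in introns for 76.8% of short arm peaks (75.4 to 78.2) and 73.2% of long arm peaks (71.3 to 74.95), using 1 canonical transcript per gene. Intergenic summits made up 17.7% (16.5 to 19.0) and 19.4% (17.8 to 21.1). The median distance from a distal summit to the nearest start site was 8.39 kb on the short arm and 10.3 kb on the long arm, and neighbouring distal summits were a median of 2.20 and 2.21 kb apart.

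Along the arms, 47 bins of 5 Mb had at least 1 Mb of ungapped sequence. Distal density ranged from 2.92 to 77.1 per Mb over the bins, with a median of 25, and promoter density from 1.17 to 35.6, with a median of 8.80. The 3 bins with the most distal peaks held 16.8% of them in 6.60% of the ungapped bases, and the top 10 held 41.6% in 22.0%.

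**Figure D2:**
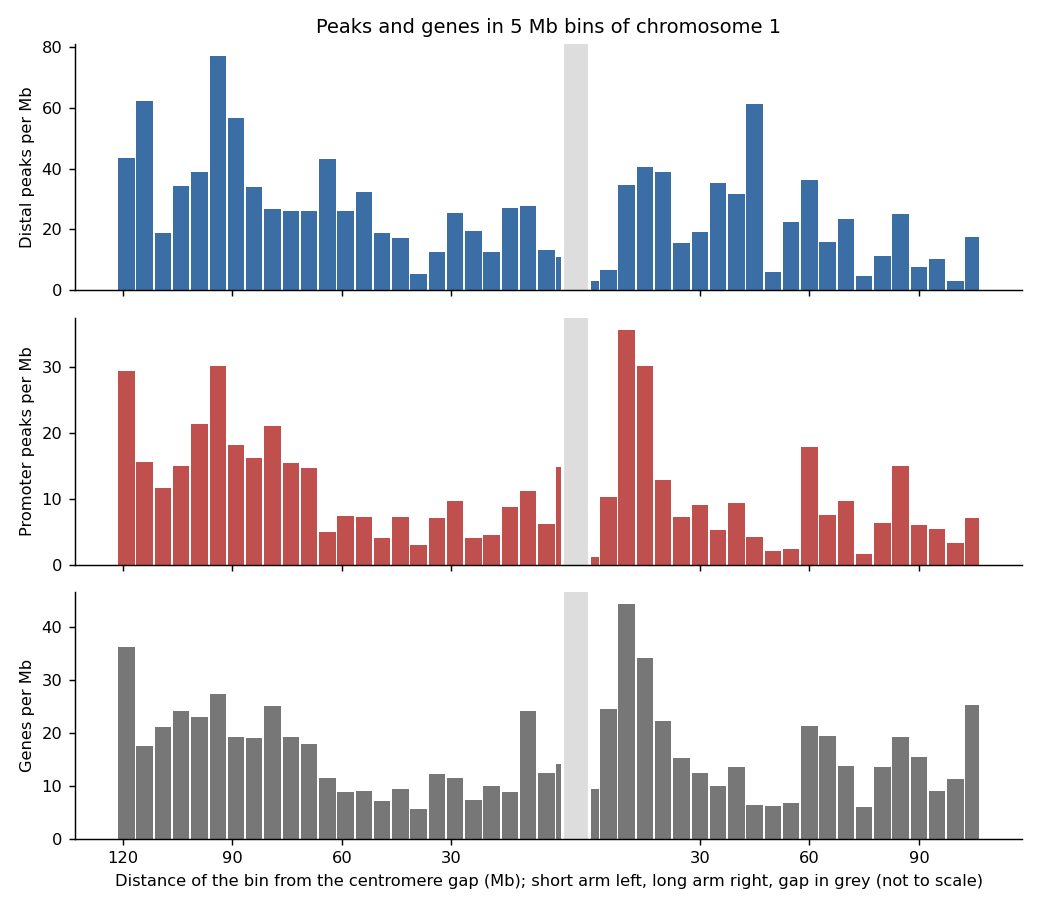
Distal peaks, promoter peaks and genes per ungapped Mb in 5 Mb bins, by distance from the centromere gap in Mb, with the short arm on the left. Distal density peaks at 77.1 per Mb about 94 Mb from the gap on the short arm and at 61.2 about 45 Mb from it on the long arm, and in this last bin the bars for promoters and genes are low.

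The 3 densest bins for distal peaks were not the 3 densest for promoter peaks. The first, 25 to 30 Mb from the short arm end, held 376 distal peaks (77.1 per Mb) and 147 promoter peaks (30.1 per Mb). In this bin 90 of 133 genes (67.7%) had a promoter peak, beside 45.7% of all genes of the chromosome. The bin contains CLIC4, a chloride channel-like protein, ARID1A, a subunit of the SWI/SNF chromatin remodeller, YTHDF2, a reader of methylated adenosine in RNA, and EPB41, a membrane skeleton protein, whose bodies held 55, 55, 27 and 56 distal peaks. The next, 5 to 10 Mb, had 62.2 distal peaks per Mb, and 71.1% of them lay in RERE, a transcriptional co-regulator. The last, 185 to 190 Mb, had 61.2 distal peaks per Mb beside 4.20 promoter peaks per Mb and 32 genes. In that bin 268 of the 306 distal peaks (87.6%) lay in HMCN1, which encodes an extracellular matrix protein.

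Promoter peaks were densest from 150 to 155 Mb (35.6 per Mb) and 155 to 160 Mb (30.2) on the long arm, which ranked 1 and 3 in gene density, and then from 25 to 30 Mb on the short arm. The bin at 150 to 155 Mb contains the epidermal differentiation complex. Of its 221 genes, 111 (50.2%) had a promoter peak, beside 45.7% of all genes of the chromosome. Its distal density was 34.6 per Mb, which ranked 12.

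The 3 emptiest bins, for distal and for promoter peaks alike, were on the long arm. Distal density was lowest in the bin just past the centromere gap (2.92 per Mb, 5 distal and 2 promoter peaks in 1.71 ungapped Mb), then from 240 to 245 Mb (3.20) and from 215 to 220 Mb (4.80). Promoter density was lowest in the same bin past the gap (1.17 per Mb), then from 215 to 220 Mb (1.60) and from 190 to 195 Mb (2.00). The bin past the gap also had the highest median background, 13.1 reads, against 3.45 to 6.27 in the other long arm bins. The last bin before the gap on the short arm had 10.9 distal and 14.8 promoter peaks per Mb, over 1.29 ungapped Mb, with a background of 5.20 reads.

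**Figure D3:**
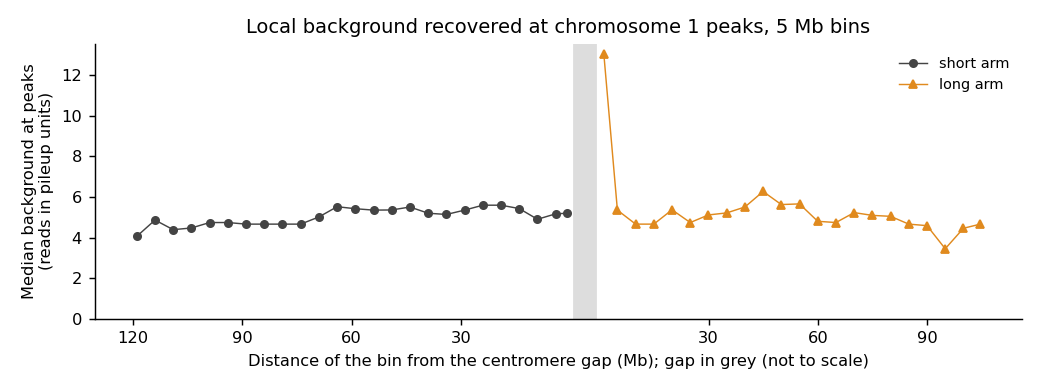
Median local background at the peaks of each 5 Mb bin, in reads, by distance from the centromere gap in Mb. Short arm bins lie between 4.06 and 5.60, and the long arm bin next to the gap stands apart at 13.1.

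Gene density went with promoter peaks more closely than with distal peaks. Over the 47 bins, Spearman's rho of genes per Mb was 0.84 with promoter peaks per Mb and 0.43 with distal peaks per Mb (Pearson's r 0.89 and 0.40). Within the short arm (25 bins) the rho values were 0.86 and 0.54, and within the long arm (22 bins) 0.86 and 0.38. GC content had rho values of 0.82 with promoter and 0.52 with distal density, the latter 0.73 on the short arm and 0.33 on the long arm. The local background had a rho of −0.09 with distal density over all bins, −0.43 on the short arm and 0.12 on the long arm. The bins come from 1 library and share its depth, and gene density and GC content rise together, so these values are descriptions without a test. Promoter peaks were also defined by start sites of the same genes, so part of their closer relation to gene density is built in.

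**Figure D4:**
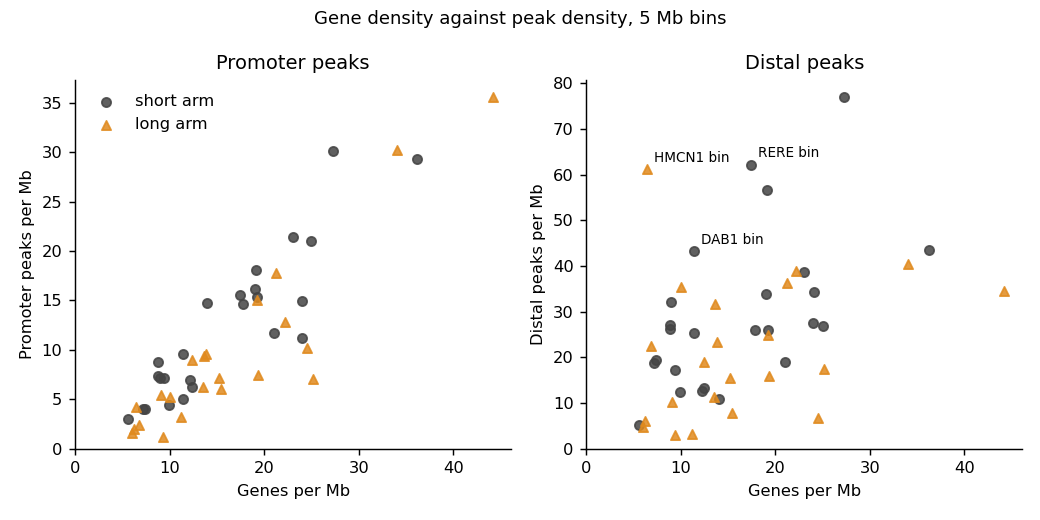
Genes per Mb against promoter peaks per Mb (left) and distal peaks per Mb (right), with 1 point per 5 Mb bin, circles for the short arm and triangles for the long arm. Promoter density, defined by start sites of the counted genes, climbs with gene density on both arms. The HMCN1, RERE and DAB1 bins hold 61.2, 62.2 and 43.2 distal peaks per Mb at low to middling gene density.

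A large share of the distal peaks lay in a small number of genes. Of 1150 protein-coding genes of at least 20 kb, 47 (4.09%, 3.02 to 5.40) held 20 or more distal summits, against 2.65% over all chromosomes, a minimum chosen after the values were seen. These 47 bodies held 2306 distal peaks, 38.9% of the distal peaks of the chromosome, in 8.65 Mb (3.84% of the ungapped bases). The share was 27.7% over the other chromosomes together, and it was 39.4% on chromosome 16 and 38.4% on chromosome 5. Distal density was 267 per Mb inside them and 16.7 per Mb outside. The short arm had 33 of them with 43.2% of its distal peaks, and the long arm 14 with 32.4%. Without the peaks in these bodies, distal density was 17.0 per Mb on the short arm and 15.0 on the long arm, a ratio of 0.879 (0.822 to 0.939), chromosome 1 ranked 3 at 16.1 per Mb, and the rho of gene density with distal density became 0.60.

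HMCN1 (chr1:185703523-186160081) held 268 distal peaks, which covered 32.7% of its length with a median gap of 462 bp between them. DDR2, a collagen receptor tyrosine kinase, held 85 in 156 kb, and KIRREL1, a cell adhesion protein, 57 in 107 kb. On the short arm RERE (chr1:8412457-8908980) held 221, DAB1, an adaptor of the reelin pathway in neuronal migration, 180 in 1552 kb, and NTNG1, a guidance protein of axons, 79 in 345 kb. Per length, among these 47 genes, KHDRBS1, an RNA-binding protein, was the densest with 41 peaks (87.3 per 100 kb), followed by YTHDF2 (81.4), the histone-binding protein RBBP4 (74.1), the mitotic chromosome-associated protein RCC2 (72.9) and the histone chaperone NASP (71.3). DAB1, with 11.6 per 100 kb, was far sparser.

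**Figure D5:**
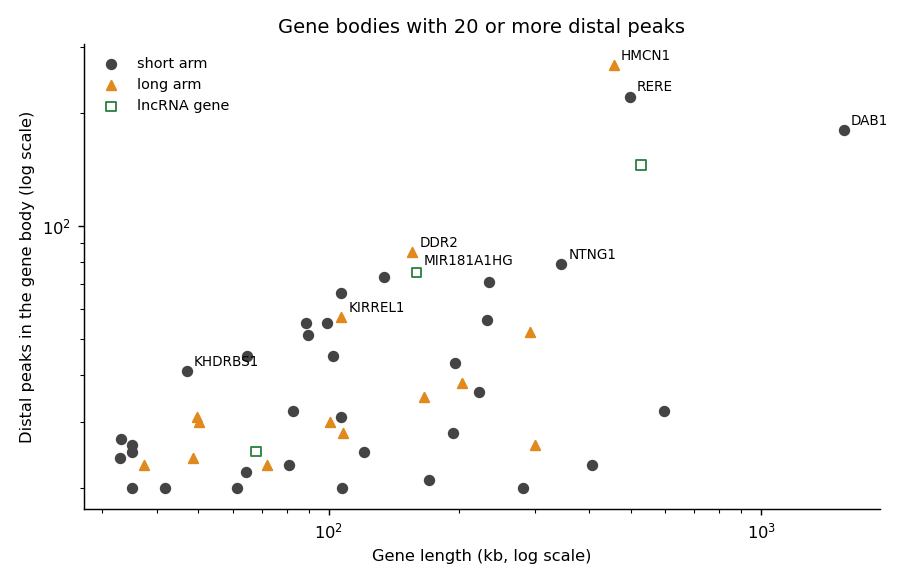
Distal peaks in a gene body against gene length in kb, both on log scales, for the 47 protein-coding and 3 lncRNA genes that held 20 or more. HMCN1 holds 268 peaks in 457 kb and DAB1 180 in 1552 kb.

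The median fold enrichment in a body ranged from 2.89 to 4.66 over the 47 genes, and over all their distal peaks it was 3.33, against 3.46 for distal peaks elsewhere on the chromosome. Their median background was 5.60 reads, against 4.90 elsewhere, and the part of that difference in their number was not tested. HMCN1 peaks spanned fold enrichments of 2.06 to 9.26 and RERE peaks 1.93 to 8.69. All 47 genes had a promoter peak, the strongest of which ranged from 3.53 to 33.6 in fold enrichment and exceeded the median of the body in all 47 and its highest distal peak in 41. Over the whole chromosome, too, the median was higher for promoter peaks (4.49) than for distal peaks (3.41). A strongest promoter peak above the body's median is therefore not particular to these genes. Among all 1150 long genes, 282 of 776 with a promoter peak (36.3%) had no distal peak, against 305 of 374 without one (81.6%).

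Divided into 10 equal segments from the 5′ to the 3′ end, the 47 bodies held 56.6% of their distal peaks in the first 5, and 34 genes had most of theirs there. Peaks near any start site were counted as promoter peaks, which lowers the count near the 5′ end. HMCN1 had 30, 38, 42, 39, 35, 27, 25, 17, 8 and 7 peaks in successive segments, so they thinned towards the 3′ end. NTNG1 had 92.4% of its peaks in the first 5 segments and DDR2 83.5%. RERE and DAB1 were the opposite, with 33.9% and 5.00%. JAK1, RGL1 and PHC2 were also skewed, with 19.7%, 11.5% and 5.00% in the first 5 segments. RERE had 4 promoter peaks of 5-fold enrichment or more. The strongest (13.2), near the 5′ end, had 220 of the 221 distal peaks 3′ of it, an internal one at chr1:8760766-8763949 (10.99) had 214, and others further in (7.87 and 5.75) had 56 and 6. In DAB1, 157 of the 180 (87.2%) lay 3′ of an internal promoter peak at chr1:57887678-57890912 with a fold enrichment of 8.99, the strongest of that gene. Over the 47 bodies, the median share of distal peaks 3′ of the strongest promoter peak was 100%, and in 43 it was over 90%. This placement is therefore not particular to RERE and DAB1. The annotated DAB1 body also overlaps OMA1, and the strongest distal peak in it (7.77) overlapped both genes.

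Of 390 lncRNA genes of at least 20 kb, 3 held 20 or more distal peaks. ENSG00000227579 (chr1:177361803-177889287, 527 kb) held 145 with a median fold enrichment of 3.24, and its bin, 175 to 180 Mb, ranked 11 in distal density with 50 genes and no protein-coding body over the minimum. MIR181A1HG (chr1:198746990-198906600), the host transcript of microRNAs of the miR-181 family, held 75 in 160 kb, covering 34.4% of its length, and its promoter peak had a fold enrichment of 10.9. Both lie on the long arm and overlap no protein-coding gene. The other, ENSG00000240553 on the short arm, overlaps KDM1A and LUZP1, and 22 of its 25 peaks also lay in a counted protein-coding body, so the gene they belong to is uncertain.

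At single peaks, the strongest distal signal of the short arm came close to the strongest promoter signal. The strongest promoter peak (chr1:17230749-17232365) had a fold enrichment of 58.4, from a pileup of 259 reads (228 to 293) over a background of 3.45, and overlapped CROCC, a centriole rootlet gene, and a pair of lncRNA genes. Next came the promoters of PRDX1, a peroxide-reducing enzyme (51.6), and TAF12, a subunit of the general transcription factor TFIID (44.4). They were followed by the shared promoter of INKA2 and DDX20 (40.8) and that of SSU72, an RNA polymerase II phosphatase (36.8). The strongest distal peak, 285 reads (253 to 320) and a fold enrichment of 52.6, overlapped RNU5F-1, a gene of the U5 small nuclear RNA of the spliceosome, in an intron of ARMH1. A peak over RNU5D-1 (38.1) lay in the same bin, from 45 to 50 Mb, and values of 24.8 in an intron of H6PD and 24.3 at an intergenic site were also among the 5 highest. Peaks over U5 genes were distal only because small RNA genes were not counted in the promoter windows.

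On the long arm the strongest promoter peak, at the start sites of SCNM1 and LYSMD1 (chr1:151137849-151139178), had 253 reads (223 to 286) and a fold enrichment of 54.4. A pair of peaks over the histone genes H2BC21, H2AC20 and H2AC21 followed with 39.9 and 36.5, as did the shared promoter of SMG5 and TMEM79 (37.6) and a promoter of LINC01719 that overlaps the U1 small nuclear RNA gene RNVU1-6 (32.7). The strongest distal peak (27.8, 180 reads, 155 to 208) overlapped RNU5A-8P in an intron of HHAT, and the next ones the U1 genes RNVU1-8 (27.5) and RNU1-59P (16.8). The RNU1-59P peak had 266 reads, more than the other 4 named distal peaks of the arm, but over a background of 14.9. The remaining 2 had fold enrichments of 14.4 and 14.2, the latter in an intron of ITPKB. The pileup interval at the distal maximum of the long arm lay below that at RNU5F-1. Small nuclear RNA genes exist in near-identical copies, so which copy the reads came from is uncertain.

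The cell cycle genes and the lists that follow were chosen with earlier results of these data known, so their shares are descriptions only. Every cell cycle gene listed had a promoter peak. All 16 listed on the short arm did, with a median best fold enrichment of 11.1 (6.37 to 27.5), as did all 13 on the long arm, with a median of 13.1 (5.64 to 20.3), beside 58.3% of the protein-coding genes of the chromosome and a median of 9.16 among those. CDC20, the activator of the anaphase-promoting complex, reached 27.5, the cyclin-dependent kinase inhibitor CDKN2C 23.4, the guanine nucleotide exchange factor RCC1 22.1 and the microtubule regulator STMN1 20.7. On the long arm NUF2 and CENPL, proteins of the kinetochore and centromere, had 20.3 and 19.4, and CKS1B, a subunit of cyclin-dependent kinases, 17.2. LIN9, a core subunit of MuvB, had 10.9, and the mitotic kinesin KIF14 8.10. The lowest of the 29 was DTL, a subunit of a ubiquitin ligase that acts in S phase, with 5.64, although its body held 23 distal peaks.

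All 5 ribosomal protein genes had a promoter peak, from 19.7 at RPL22 to 25.6 at RPL5, and so did the 3 host genes of small nucleolar RNAs, SNHG3 (22.1), SNHG12 (26.1) and GAS5 (27.4). SNHG3 and RCC1 share that value and overlap each other. Among genes known for their part in cancer, promoter peaks were found at the anti-apoptotic MCL1 (20.1), NRAS (16.8), ID3 (16.0) and ARID1A (9.85). Of 14 replication-dependent histone genes, all on the long arm, 7 had one, a share whose interval (23.04% to 76.96%) holds the 58.3% of the protein-coding genes of the chromosome. Neighbours among them share a value (39.9 at H2BC21, H2AC20 and H2AC21, and 16.1 at H2AC25 and H2BC26). The genes are thus not independent, and the interval is too narrow.

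The 7 clustered gene families set apart above had few promoter peaks, a low share that partly follows from their choice with earlier results known. Of their 194 genes, 9 had one (4.64%, 2.14 to 8.62), beside 58.3% of the protein-coding genes of the chromosome. The replication-dependent histone genes were not in this set. No promoter peak was found at the 65 olfactory receptor genes (upper bound 5.52%) or the 7 guanylate-binding protein genes (upper bound 41.0%), which answer to interferon. Only 5 of the 54 genes of the epidermal differentiation complex had one, all 5 of them S100 calcium-binding protein genes, led by S100A13 and S100A1 at a shared peak (11.5). Of 26 CD1, Fc receptor-like and SLAM family genes of immune cells, SLAMF1 (6.75) and FCRLB (4.42) had one. The 23 PRAMEF and 5 amylase genes had none (upper bounds 14.8% and 52.2%) and the 14 NBPF genes 2. These last 3 families are made of near-identical copies, where reads kept at a mapping quality of at least 20 can be few, so absence there is uncertain.

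The longest stretch without a peak ran for 3.66 Mb on the long arm (chr1:236963507-240625951) across RYR2, a calcium channel of heart muscle, ZP4, CHRM3, a muscarinic receptor, FMN2 and MT1HL1. The next, 3.10 Mb on the short arm (chr1:104089080-107193581), contains the amylase genes, and the one after it, 2.69 Mb on the long arm (chr1:193318220-196003251), contains no start of a protein-coding gene. Stretches of at least 1 Mb without a peak numbered 24 and added up to 37.9 Mb, 16.8% of the ungapped bases.

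The MYB site occurred within 50 bp of the summit in 45.5% of short arm distal peaks (43.9 to 47.2) and 43.8% of long arm ones (41.7 to 45.8), and in 45.9% of distal peaks on the other chromosomes. In windows of the same length placed 500 bp further along, the shares were 40.1% and 40.4%, below both intervals. At promoter peaks the site was found in 41.9% on the short arm and 41.6% on the long arm, against 39.8% and 42.5% in the shifted windows. The CHR element was found at 10.8% of short arm and 12.0% of long arm distal summits, against 9.65% and 9.80% in the shifted windows, and at 5.59% and 5.17% of promoter summits, below the 6.95% and 6.05% in the shifted windows. The CCAAT box was found at 14.0% and 14.5% of distal summits, against 12.8% and 12.9% in the shifted windows. The ETS core was rarer, at 1.36% of short arm and 1.07% of long arm promoter summits, against 0.272% and 0.0976% in the shifted windows. Inside the 47 gene bodies with 20 or more distal peaks the MYB site share was 45.9% (43.9 to 48.0), and outside them 44.2% (42.5 to 45.8). Both strands were searched, and motifs may overlap each other. The E2F site, searched as TTTCCCGC, TTTGGCGC, TTTCGCGC and TTTGCCGC, was found at 0.749% and 1.37% of promoter summits, against 0.409% and 0.683% in the shifted windows. A run of 3 GGAA units, the repeat that EWSR1-FLI1 binds, was found at 0 of 3606 short arm and 3 of 2317 long arm distal summits. It was rare elsewhere too, in 0.166% and 0.173% of the shifted windows and at 58 of 44011 distal summits (0.132%) over all chromosomes. The short words were nearly as frequent in the shifted windows as at the summits, and a match is not evidence of binding.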

How the data were processed

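ChIP-seq peaks of MYBL2 in A673 cells were analysed as the authors deposited them. Per the study's methods, reads were aligned to hg19 with Bowtie2, reads with a mapping quality of at least 20 were kept, and MACS2 (2.0.10 in the submitters' processing notes) called narrow peaks against the input at a q threshold of 0.05. The deposited list is named as cleaned, by a step not given in the sources used here. The deposited columns are a score (not used), a fold enrichment (a ratio of signal to local control), −log10 p and −log10 q values, and the summit offset. The list holds no read totals, which the study's reporting summary states. The counts behind each peak were judged from the pileup at its summit, 11 to 292 reads on chromosome 1, which was recovered with the local background from the fold enrichment and −log10 p (largest misfit 3.49e-05, tested on simulated data).

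Peak coordinates fell within the GRCh37 chromosomes (0 beyond an end). Genes were 20098 protein-coding and 18592 lncRNA genes of GENCODE v44lift37. Densities are per Mb outside assembly gaps. Bodies are protein-coding genes of at least 20 kb. Shares have Clopper-Pearson intervals, pileups Poisson intervals and density ratios conditional binomial intervals. Alternatives covered peak strength, merging of close peaks, promoter windows, bins and chromosome ends. The members, lists and rules were chosen with earlier results of these data known. The text names the 5 strongest promoter and distal peaks of each arm, the 3 densest and 3 emptiest bins, those next to the centromere gap, the 3 genes per arm with the most distal peaks, the 3 longest peak-free stretches and listed genes. Some items that these rules select are not reported here. The lncRNA genes, the genes densest per length, JAK1, RGL1 and PHC2, the genes named for the densest bins and the HMCN1 and RERE windows were chosen after their values were seen. Python 3.11.15, SciPy 1.17.1, pysam 0.24.0 and samtools 1.23.1 were used.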

Additional observations from a re-analysis of the deposited data

How the results depend on the processing

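Of 74 alternatives over 13 results, 55 stayed within the main interval (within 0.1 for a rho and 1.5 times for a count), 19 did not, and none reversed a direction whose main interval excluded equality. Merging peaks within 100 bp, counted among those that stayed, changed no value and left 8416 peaks, so it says nothing about stability. Peaks numbered 4236 at −log10 q of at least 5 and 1648 at a fold enrichment of at least 5. The promoter share was 39.9% and 66.4% with those filters, 23.9% with windows of 500 bp, 42.1% with 5000 bp upstream to 1000 bp downstream, 27.4% by the summit and 17.97% from the outermost start site alone. The distal density relative to other chromosomes was 1.37 times at a fold enrichment of at least 5, 1.85 with the window of 5000 bp and 1.75 from the outermost start sites. It was 1.52 without the peaks of gene bodies holding 20 or more distal peaks, with the bases of those bodies kept. The long to short arm ratio of all peaks was 0.812 and 0.824 with the q and fold enrichment filters. That of promoter peaks was 0.876 from the outermost start sites. That of distal peaks was 0.814 and 0.879 with the filters, and 0.879 without the peaks of those gene bodies. The interval of the distal ratio at a fold enrichment of at least 5 (0.740 to 1.04) included 1. The rho of gene and distal density was 0.60 without the peaks of those bodies. Stricter filters keep fewer peaks and wider windows move distal peaks to promoters by construction, and other causes were not tested. Those setting aside gene bodies or gene families, 4 in all, were chosen with the values already seen. No paired analysis was possible because neither group had a second library.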
